A study of Drosophila melanogaster with 12 samples.

Results

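The 9 genes described here act at the step from the G1 phase to the S phase of the cell cycle or supply the replication machinery: CycD, Cdk4, CycE, dap, Rbf, E2f2, mus209, RnrL and RnrS. They were chosen by name, as the rows of the normalized count table that carry these symbols, and all 9 were found among its 15240 genes. All 9 also met the condition for testing, an average of 10 normalized counts or more across the 8 RNA libraries, as did 7775 genes in all.

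RNA was sequenced from wings of Drosophila melanogaster females, kept at 25 degrees, in 4 groups of 2 libraries. Wild type animals, written +/+; +/+; +/+ in the labels, and EcR-RNAi animals were each taken 6 h before puparium formation (-6 h) and 6 h after it (+6 h), from wandering larvae and from animals staged at the white prepupa. EcR-RNAi animals were yw/yw and carried Vg-GAL4 with UAS-Flp, a Tub>>CD2>>GAL4 cassette, UAS-GFP and the hairpin UAS-EcR-RNAi[104]. Here Vg-GAL4 drives the Flp recombinase, which switches on a GAL4 source that then stays on in those cells and their descendants, so that cells never reached by Vg-GAL4 do not express the hairpin. The 2 genotypes also differ in strain background and in every transgene named, so their effects and that of lower EcR cannot be told apart. The labels do not say whether the 2 libraries of a group came from separate animals, and the p-values speak only of the spread between these libraries, which may be technical.

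EcR is the nuclear receptor of ecdysone, the steroid hormone whose pulses time the passage from larva to prepupa and pupa. Cells of the larval wing disc divide until the end of larval life, pause in the early prepupa and divide again for a short time in the pupa. In G1, cyclin D with Cdk4 and cyclin E with its kinase partner phosphorylate the retinoblastoma protein Rbf, which releases E2F factors to transcribe genes for DNA synthesis, while the inhibitor dacapo holds cyclin E complexes back. PCNA, the clamp that keeps DNA polymerase on its template, and ribonucleotide reductase, which makes the deoxynucleotides, are classic products of that transcription.

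Library depth lay between 6444939 and 10016236 reads recovered from the deposited values, and the 9 genes had between 125 and 1697 reads in a library. The targeted gene EcR gave 2194 and 1924 normalized counts in the wild type libraries before puparium formation, then 5764 and 6852 after it. Its values in EcR-RNAi were 1634 and 1307 before and 2201 and 2081 after, lower than wild type at -6 h by a ratio of 0.714 (adjusted p = 0.0449) and at +6 h by a ratio of 0.339 (adjusted p = 1.04e-05). All 6 wing epithelium markers were detected in every library, with a summed level of 13228 to 18761 normalized counts. The lowest sum was that of EcR-RNAi -6 h replicate 2, against 17818 in replicate 1. Of the 6, ap alone passed a test between stages or genotypes. It fell in wild type (-0.91 ± 0.12 on the log2 scale) and was lower in EcR-RNAi at -6 h (-0.51 ± 0.12). The EcR-RNAi libraries at -6 h stood apart in other markers. There 5 gut proteases summed to 1375 and 371 normalized counts, against 0 to 4.20 in the other 6 libraries. The 5 fat body genes summed to 1531 and 4164 there, to 712 to 830 in EcR-RNAi at +6 h and to 209 to 565 in wild type. All 5 lay higher in EcR-RNAi than in wild type at +6 h, and Lsp1beta alone passed the test (ratio 8.151, adjusted p = 0.0191). The gut protease Jon99Ciii was at 0 in all 8 libraries. The 5 myoblast markers summed to 1721 to 2088 normalized counts in larval and 3366 to 3930 in prepupal wild type wings, and in EcR-RNAi to 2162 to 2602 and then 3513 to 3716. In wild type twi, Him, zfh1 and lmd rose, lmd from 0.97 and 0.64 to 388 and 350 normalized counts. The marker htl did not pass the test in either genotype (-0.04 ± 0.20 on the log2 scale in wild type), nor did zfh1 in EcR-RNAi (0.32 ± 0.21). Muscle markers (5 genes) summed to 165 to 243 in larval and 671 to 819 in prepupal wild type wings, hemocyte markers (5 genes) to 115 to 245 and 496 to 523, and tracheal markers (3 genes) to 7025 to 9386 over all libraries. The tracheal sum was mostly vvl (6377.5 to 8561.9 normalized counts). The tracheal marker btl fell in wild type (-1.22 ± 0.23 on the log2 scale), while trh and vvl did not pass the test. In EcR-RNAi, muscle markers summed to 398 to 432 and then 961 to 1112, and hemocyte markers to 228 to 324 and then 382 to 415. The muscle sum was mostly Act57B, which rose on the log2 scale by 2.12 ± 0.25 in wild type and 1.53 ± 0.25 in EcR-RNAi. Mlc2 rose in wild type (0.70 ± 0.22), but in EcR-RNAi its libraries at +6 h were the lower (-0.70 ± 0.22, adjusted p = 0.0507). The hemocyte markers did not move together in wild type: srp (2.85 ± 0.38 on the log2 scale) and nimC1 (1.63 ± 0.55) rose, while Hml (-2.35 ± 0.37) and He (-2.83 ± 0.49) fell. The part of these other cell types in the results below was not tested. In such bulk samples, fewer cells of a type and less RNA per cell cannot be told apart. Levels are given as normalized counts, which are not divided by gene length, so they are compared between libraries and never between genes.

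In wild type wings 8 of the 9 genes fell from -6 h to +6 h and none rose. The S-phase enzymes fell most, to between 0.302 and 0.370 of their level at -6 h. Rbf and CycE fell to 0.550 and 0.641, CycD, Cdk4 and E2f2 to between 0.698 and 0.769, and only dap did not pass the test. Calls are at a Benjamini-Hochberg adjusted p under 0.05 from limma on log2(normalized count + 1), adjusted over all 7775 genes. Of those genes, 26.7% were called lower in this comparison and 29.1% higher. limma gave no member as higher at an unadjusted p under 0.05 either, and edgeR and DESeq2 called 0 higher.

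**Figure D1:**
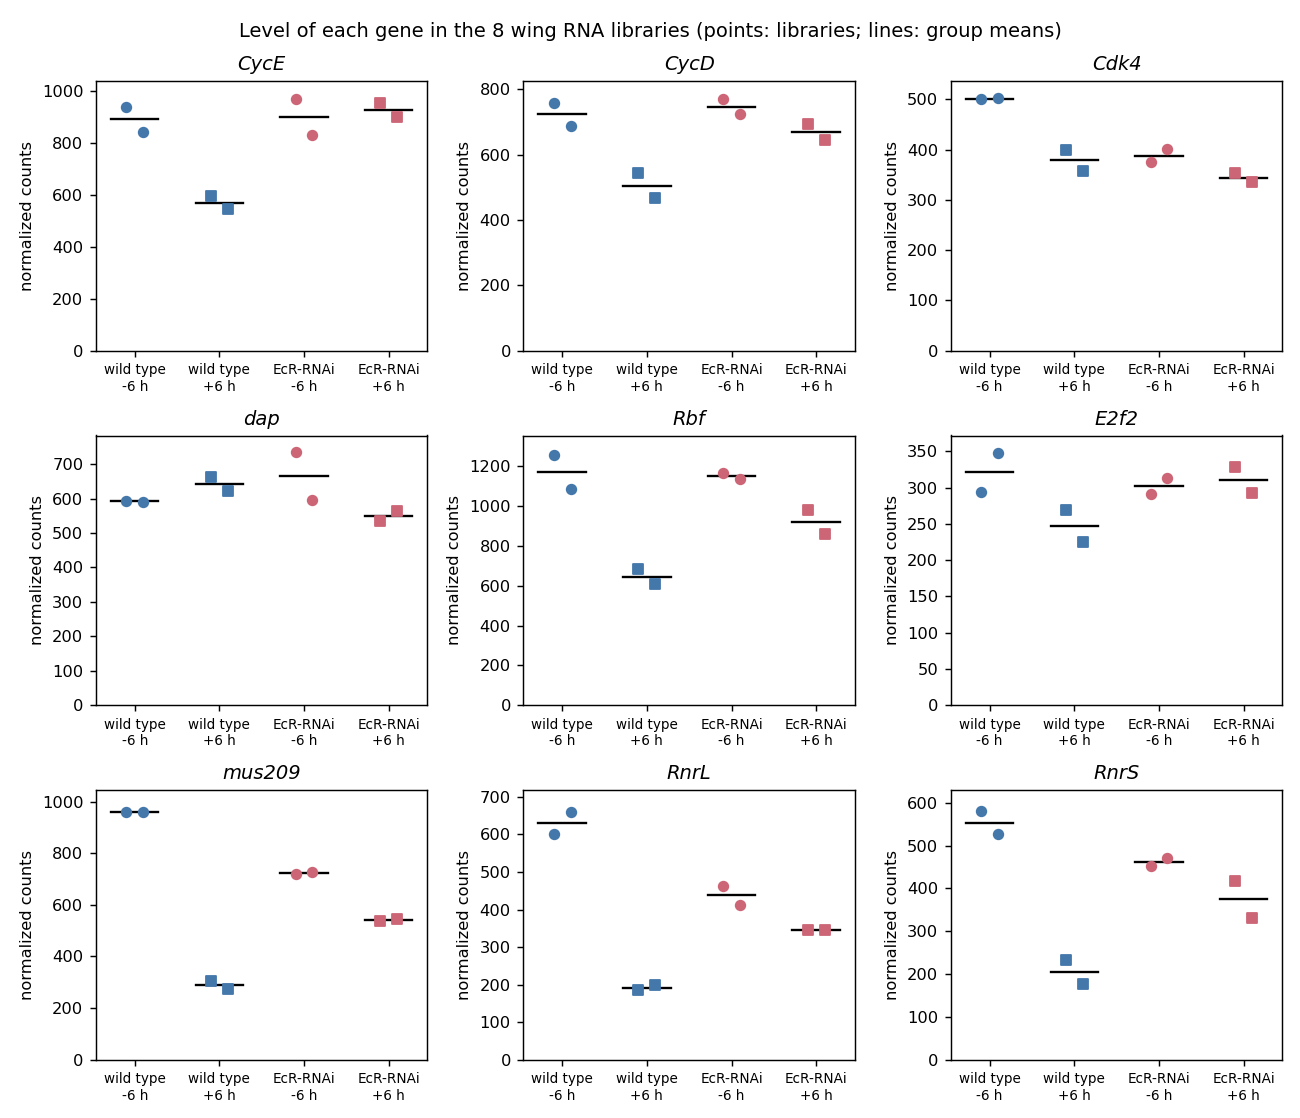
Normalized counts of each gene in the 8 wing libraries; each panel is 1 gene with its own axis from 0, points are libraries, and horizontal lines are group means (n = 2). In wild type mus209, RnrL and RnrS stand far lower at +6 h than at -6 h, while in EcR-RNAi the 2 stages lie closer together; dap lies between 591 and 664 in wild type.

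Cyclin D is the regulatory partner of Cdk4. CycD had 757 and 689 normalized counts in the wild type libraries of -6 h, then 543 and 467 in those of +6 h. The EcR-RNAi libraries of the same stages had 771 and 724, then 693 and 646. The wild type stages did not overlap, and the log2 fold change was -0.52 ± 0.11 (standard error, adjusted p = 0.00217). In EcR-RNAi the stages did not overlap either, but the difference of -0.16 ± 0.11 did not pass the test (adjusted p = 0.391, 95% interval -0.41 to 0.09).

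Cdk4 encodes the kinase itself. Wild type libraries held 500 and 502 normalized counts before puparium formation, and 400 and 358 after it. EcR-RNAi libraries held 374 and 401, then 353 and 335. Cdk4 was thus already low in EcR-RNAi at -6 h, at 0.774 of the wild type level (log2 difference -0.37 ± 0.11), which missed the threshold (adjusted p = 0.0556) and passed it in 1 of 19 alternatives, with quantile scaling (adjusted p = 0.0291). The wild type stages differed by -0.41 ± 0.11 (adjusted p = 0.00854), a call that ended without wild type +6 h replicate 2 (adjusted p = 0.06). The stage difference in EcR-RNAi was -0.17 ± 0.11 (adjusted p = 0.342). An antisense gene overlaps Cdk4 and no source used here says how the counting used strand, so some of its reads could belong to that gene.

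Cyclin E drives entry into S phase. CycE gave 941 and 842 normalized counts in the wild type larval wings (-6 h) and 595 and 548 in the prepupal wings (+6 h). With EcR-RNAi the larval wings gave 969 and 831 and the prepupal wings 955 and 901. The wild type libraries at +6 h were the lowest of all 8, and the other 6 overlapped one another. The stage difference was -0.64 ± 0.11 in wild type (adjusted p = 0.000589) and 0.05 ± 0.11 in EcR-RNAi (adjusted p = 0.826, 95% interval -0.20 to 0.30). CycE overlaps a long noncoding RNA gene and an antisense gene, so its reads carry the same uncertainty as those of Cdk4.

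dap encodes dacapo, the inhibitor of cyclin E complexes. The wild type larval libraries held 592 and 591 normalized counts of dap, the prepupal ones 664 and 623. Of the EcR-RNAi libraries, the larval ones held 736 and 596 and the prepupal ones 535 and 564. The wild type stages did not overlap, with +6 h the higher, but the difference of 0.12 ± 0.12 did not pass the test (adjusted p = 0.412, 95% interval -0.14 to 0.38) and its sign turned with 2 other scalings. In EcR-RNAi the libraries at +6 h were the lower (log2 difference -0.27 ± 0.12, adjusted p = 0.155), and the difference passed the test with upper-quartile scaling (adjusted p = 0.0283), with quantile scaling (adjusted p = 0.0337) and without EcR-RNAi -6 h replicate 2 (adjusted p = 0.0454).

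Rbf encodes the retinoblastoma protein, which represses E2F targets. Larval wild type wings had 1257 and 1087 normalized counts of Rbf and prepupal ones 683 and 607. Larval EcR-RNAi wings had 1166 and 1137, and prepupal ones 979 and 860. The 2 groups at -6 h overlapped, and the EcR-RNAi libraries at +6 h lay between them and wild type at +6 h. The stage difference was -0.86 ± 0.12 in wild type (adjusted p = 7.8e-05) and -0.33 ± 0.12 in EcR-RNAi (adjusted p = 0.0858), where upper-quartile and quantile scaling brought it past the threshold (adjusted p = 0.0171 and 0.0114).

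E2f2 is the fly E2F factor that represses its targets together with Rbf proteins. Its normalized counts in wild type were 294 and 348 before puparium formation, then 268 and 226. Those in EcR-RNAi were 290 and 313, then 328 and 292. Wild type at +6 h held the lowest 2 of the 8 values, and the other 3 groups overlapped. The wild type difference of -0.38 ± 0.14 passed the test (adjusted p = 0.0378), but the call ended in 8 of 20 alternatives, DESeq2 among them, with an adjusted p of up to 0.233. In EcR-RNAi the difference was 0.04 ± 0.14 (adjusted p = 0.887). E2f2 overlaps the gene Mpp6, so its reads could be shared.

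mus209 encodes PCNA. The wild type libraries read 959 and 961 normalized counts in larval wings and 304 and 275 in prepupal wings. The EcR-RNAi libraries read 719 and 729 in larval wings and 539 and 544 in prepupal wings. No 2 groups overlapped: wild type was the highest group at -6 h and the lowest at +6 h. The stage difference was -1.73 ± 0.10 in wild type (adjusted p = 1.03e-07). In EcR-RNAi mus209 was the only member called, with -0.42 ± 0.10 (adjusted p = 0.0149), and that call ended with DESeq2 (adjusted p = 0.0601) and without EcR-RNAi -6 h replicate 2 (0.0579), +6 h replicate 1 (0.102) or +6 h replicate 2 (0.0908).

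RnrL encodes the large subunit of ribonucleotide reductase. Wild type gave 602 and 660 normalized counts of RnrL in the larva, and 186 and 198 in the prepupa. EcR-RNAi gave 462 and 413 in the larva, and 344 and 344 in the prepupa. The order of the 4 groups was that of mus209, again with no overlap. The stage difference was -1.71 ± 0.11 in wild type (adjusted p = 3.1e-07) and -0.34 ± 0.11 in EcR-RNAi (adjusted p = 0.0685), where upper-quartile and quantile scaling brought it past the threshold (adjusted p = 0.0139 and 0.02).

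RnrS encodes the small subunit of the same enzyme. RnrS had 580 and 527 normalized counts in larval and 233 and 176 in prepupal wild type wings. With EcR-RNAi there were 452 and 470 in larval and 418 and 330 in prepupal wings. The groups followed the same order without overlap, though the EcR-RNAi libraries at +6 h were further apart than those of the other 2 S-phase genes. The stage difference was -1.44 ± 0.16 in wild type (adjusted p = 1.39e-05) and -0.31 ± 0.16 in EcR-RNAi (adjusted p = 0.22).

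In EcR-RNAi wings 1 of the 9 genes, mus209, was thus lower at +6 h, and 0 were higher. limma gave 4 members as lower at an unadjusted p under 0.05 and 0 as higher, edgeR called 1 lower and DESeq2 0. Of all genes tested, 3.88% were called lower and 12.1% higher in this comparison. Upper-quartile and quantile scaling each called 4 members lower, where they called 874 and 945 of the 7775 genes tested lower.

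**Figure D2:**
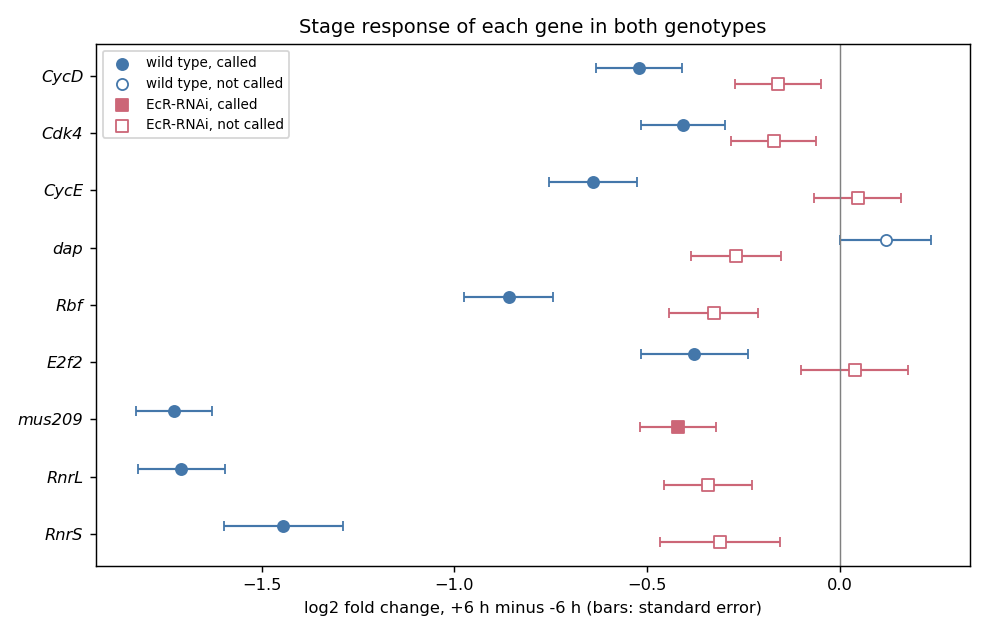
Log2 fold change from -6 h to +6 h for each gene on the horizontal axis, in wild type (circles) and EcR-RNAi (squares); bars are standard errors and filled symbols passed the test. The wild type symbols of mus209, RnrL and RnrS lie between -1.73 and -1.44, and their EcR-RNAi symbols between -0.42 and -0.31.

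Whether the stage response itself differed between genotypes was tested as an interaction, in which the wild type response is subtracted from that in EcR-RNAi. It was called above 0 for 5 of the 9 genes and below 0 for none, where 11.6% of all genes tested were called higher and 15.4% lower. RnrL had 1.37 ± 0.16 (adjusted p = 0.000127), mus209 1.31 ± 0.14 (adjusted p = 7.19e-05) and RnrS 1.13 ± 0.22 (adjusted p = 0.00315). CycE followed with 0.69 ± 0.16 (adjusted p = 0.00883) and Rbf with 0.53 ± 0.16 (adjusted p = 0.0331). All 5 values draw also on the EcR-RNAi libraries at -6 h, those with the high gut and fat body sums, whose part was not tested. The Rbf call ended in 6 of 18 alternatives, with an adjusted p of up to 0.142 without EcR-RNAi +6 h replicate 1; the other 4 calls held in all 18.

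For the remaining 4 genes the interaction did not pass the test. It was 0.42 ± 0.20 for E2f2 (adjusted p = 0.145, 95% interval -0.02 to 0.85), 0.36 ± 0.16 for CycD (adjusted p = 0.12, 0.01 to 0.71) and 0.24 ± 0.16 for Cdk4 (adjusted p = 0.3, -0.11 to 0.58). dap alone was negative, at -0.39 ± 0.17 (adjusted p = 0.11, 95% interval -0.75 to -0.02), and it was called without EcR-RNAi -6 h replicate 2 (adjusted p = 0.0304). Upper-quartile scaling called CycD (adjusted p = 0.0255) and E2f2 (adjusted p = 0.0468). limma gave 1 member as lower at an unadjusted p under 0.05, and edgeR and DESeq2 called 0 lower.

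At -6 h 2 of the 9 genes were lower in EcR-RNAi than in wild type and 0 were higher. RnrL was lower in EcR-RNAi at 0.693 of the wild type level (log2 difference -0.53 ± 0.11, adjusted p = 0.0122), and mus209 at 0.754 (-0.41 ± 0.10, adjusted p = 0.0244). Of all genes tested, 3.36% were called lower and 7.51% higher at this stage. limma gave 3 members as lower at an unadjusted p under 0.05 and 0 as higher; edgeR called 2 lower, DESeq2 1, and both called 0 higher. RnrS stood at 0.834 of wild type without passing the test (-0.26 ± 0.16, adjusted p = 0.327).

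The libraries of EcR-RNAi at -6 h are those with the high gut and fat body sums given above, and their part in these differences was not tested. The RnrL call ended without EcR-RNAi -6 h replicate 2 (adjusted p = 0.102), which has the highest fat body sum, with a log2 difference of -0.45, and without wild type -6 h replicate 2 (adjusted p = 0.105, -0.46). It held without EcR-RNAi -6 h replicate 1, which has the highest gut sum, with -0.61. The mus209 call ended in 9 of 19 alternatives, with an adjusted p of up to 0.111, while its log2 difference stayed between -0.46 and -0.40. CycE, CycD, Rbf and E2f2 overlapped between genotypes, with differences of 0.01 ± 0.11, 0.05 ± 0.11, -0.02 ± 0.12 and -0.09 ± 0.14. The dap libraries of EcR-RNAi were the higher by 0.16 ± 0.12 (adjusted p = 0.426).

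At +6 h 6 of the 9 genes were higher in EcR-RNAi than in wild type and none was lower, where 21.3% of all genes tested were called higher and 21.6% lower. The S-phase enzymes were higher by a similar ratio: mus209 by 1.869 (log2 difference 0.90 ± 0.10, adjusted p = 4.23e-05), RnrS by 1.831 (0.87 ± 0.16, adjusted p = 0.00102) and RnrL by 1.790 (0.84 ± 0.11, adjusted p = 0.000169). CycE was higher by 1.624 (0.70 ± 0.11, adjusted p = 0.000561), Rbf by 1.426 (0.51 ± 0.12, adjusted p = 0.00445) and CycD by 1.326 (0.41 ± 0.11, adjusted p = 0.0125). limma gave 0 members as lower at an unadjusted p under 0.05, and edgeR and DESeq2 called 0 lower.

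E2f2 libraries of EcR-RNAi did not overlap those of wild type at +6 h, but the difference of 0.33 ± 0.14 missed the threshold (adjusted p = 0.0769). It passed with upper-quartile scaling (adjusted p = 0.0163), with TMM scaling (0.0473) and without wild type +6 h replicate 1 (0.0493). Cdk4 and dap were the 2 members whose EcR-RNAi libraries lay below wild type, by -0.14 ± 0.11 (adjusted p = 0.35, with the log2 difference at 0.018 under upper-quartile scaling) and -0.23 ± 0.12 (adjusted p = 0.145). The CycD call ended without wild type +6 h replicate 2 (adjusted p = 0.099) or EcR-RNAi +6 h replicate 1 (0.0942), and the Rbf call without the latter (0.0573). Leaving out both EcR-RNAi libraries at -6 h, an alternative chosen after seeing the data, left 6 members higher at +6 h and 8 lower in the wild type stage comparison. Of the 7775 genes tested, 1694 were then higher at +6 h and 2084 lower in the wild type stage comparison. Neither comparison uses the libraries left out, so only the shared spread could change, not the log2 differences. The result therefore does not bear on the comparisons that use those libraries.

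**Figure D3:**
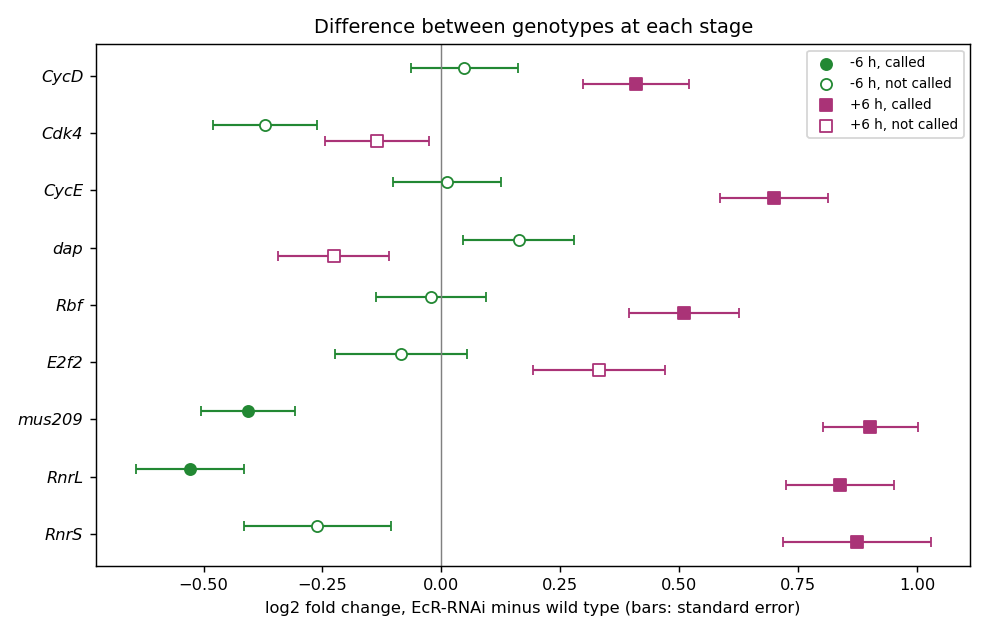
Log2 difference between EcR-RNAi and wild type for each gene on the horizontal axis, at -6 h (circles) and +6 h (squares); bars are standard errors and filled symbols passed the test. At +6 h the S-phase enzymes lie between 0.84 and 0.90, and at -6 h between -0.53 and -0.26.

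Ratios between partner genes within a library need no scaling between libraries, and only their change is read here, with no test. The log2 ratio of CycE to its inhibitor dap was 0.67 and 0.51 in larval wild type wings, then -0.16 and -0.19 in prepupal ones. With EcR-RNAi the larval wings had 0.40 and 0.48 and the prepupal wings 0.84 and 0.67. The ratio was thus lowest in wild type at +6 h, below every other library, and in EcR-RNAi the ratio at +6 h lay above that at -6 h.

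The log2 ratio of CycD to Cdk4 did not overlap between genotypes. Wild type had 0.60 and 0.46 in the larva, then 0.44 and 0.38. EcR-RNAi had 1.04 and 0.85 in the larva, then 0.97 and 0.95, above every wild type library. The stages overlapped in EcR-RNAi and not in wild type. For the 2 subunits of ribonucleotide reductase, the log2 ratio of RnrL to RnrS lay between -0.32 and 0.33 in the 8 libraries, and the 2 stages of each genotype overlapped.

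**Figure D4:**
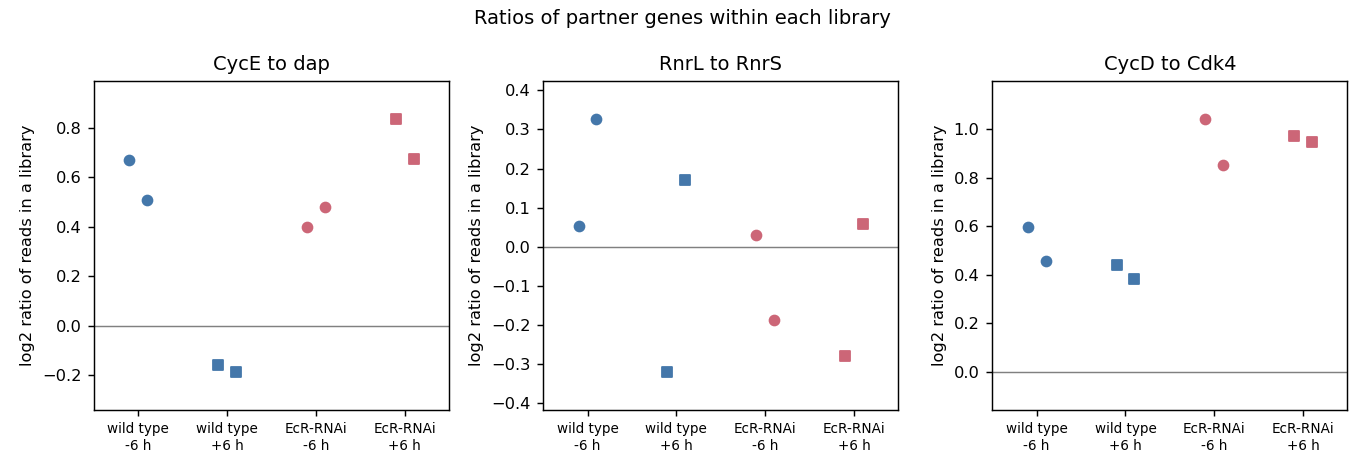
Log2 ratio of the reads of partner genes within each library, for CycE to dap, RnrL to RnrS and CycD to Cdk4; points are libraries and the grey line marks a log2 ratio of 0. CycE to dap is lowest in wild type at +6 h, and CycD to Cdk4 is at 0.85 or more in all EcR-RNAi libraries and at 0.60 or less in all wild type libraries.

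Across the 8 libraries, which share the 4 groups, the 9 genes fell into unequal patterns. Pearson's r of the log2 levels lay between 0.75 and 0.99 for the 21 pairs of the 7 genes other than dap and Cdk4. mus209 and RnrL had an r of 0.99, Rbf and RnrS 0.98, and CycD and Rbf 0.97. Cdk4 had an r of 0.15 to 0.64 with those 7 genes, and dap an r of -0.40 to 0.01 with the other 8. These values describe the 4 group levels more than 8 independent points, and no p is given.

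Among the other genes tested, those with the pattern most like each member were ranked by the same r over the 8 libraries. For mus209 they were dpa, which encodes a subunit of the MCM helicase that opens DNA for replication, with an r of 0.997, Ote, which encodes a protein of the inner nuclear membrane, and CG10005. For RnrS the first was Pole2, a subunit of DNA polymerase epsilon, with 0.996, before CG3709 and BthD. For RnrL they were CG1607 with 0.997, La, an RNA-binding protein, and Rrp1, a DNA repair nuclease.

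For Rbf the most similar genes were CstF-50, which encodes a factor of mRNA 3′ end formation, with an r of 0.995, the chromatin gene ash2, and CG14965. CycD had pad (0.996), CG42360 and the noncoding RNA gene CR43629, and CycE had CG9135, scaf6 and sle, each at 0.98 to 0.99. E2f2 had CG8199 (0.95), CG4854 and Ripalpha, and Cdk4 had CG5463 (0.98), CG15118 and CG3520. dap had the weakest likeness, with mi at 0.91, CG1603 at 0.85 and RhoGAP100F at 0.83.

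Other genes of the same step were read as 3 lists, for which the counts of calls and the median are given beside those of all genes, whose median lay between -0.01 and 0.01 in each comparison. In the stage comparison of wild type, 12 of 21 other G1-S control genes were called lower and 5 higher, where 26.7% of all genes were called lower and 29.1% higher, with a median log2 fold change of -0.67 against -0.64 for the 9 members. The largest decreases were those of Cks30A, which encodes a small subunit of Cdk complexes (-2.59 ± 0.13), Rbf2, the second fly retinoblastoma gene (-2.004 ± 0.19), and cdc2c, the kinase partner of cyclin E (-1.24 ± 0.12). The largest increases were those of Cks85A (0.96 ± 0.20), E2f, the activating E2F factor (0.58 ± 0.15), and lin19, a cullin of ubiquitin ligases (0.56 ± 0.10). The number of increases lay near the share of all genes, and it shrank to 2 with upper-quartile scaling and to 1 with quantile scaling.

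Of 20 replication enzymes tested, 19 were called lower in wild type at +6 h and 1 higher, with a median of -1.49. Fen1, the nuclease that trims Okazaki fragments (-2.14 ± 0.26), RfC4, a subunit of the loader that places PCNA on DNA (-2.13 ± 0.15), and CG15220, the smallest subunit of replication protein A (-1.86 ± 0.15), fell most. Top1, a DNA topoisomerase, was the higher one (0.63 ± 0.11), and it was not called with quantile scaling. Of 15 nucleotide synthesis genes 12 were called lower and 0 higher, with a median of -0.69. r-l, an enzyme of pyrimidine synthesis (-1.97 ± 0.18), dUTPase, which removes dUTP (-1.84 ± 0.12), and Ts, thymidylate synthase (-1.49 ± 0.22), fell most.

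In EcR-RNAi from -6 h to +6 h the same lists held fewer calls: 3 lower and 0 higher of the G1-S genes, 5 lower and 1 higher of the replication enzymes, and 1 lower and 0 higher of the nucleotide genes, where 3.88% of all genes were called lower and 12.1% higher. The single nucleotide gene lies near that share. The lists had medians of -0.15, -0.28 and -0.19. Rbf2 (-0.79 ± 0.19) and Cks30A (-0.74 ± 0.13) were among those called lower, with mip120 (-0.46 ± 0.12), DNA-ligI (-0.63 ± 0.16), RfC4 (-0.57 ± 0.15), DNApol-alpha180 (-0.56 ± 0.16) and dUTPase (-0.73 ± 0.12). Top1 was the higher one (0.38 ± 0.11), a call that ended in most alternatives. Of the list counts of 0 in both stage comparisons, none held a gene at an unadjusted p under 0.05 in that direction, and edgeR and DESeq2 called 0 as well. Upper-quartile scaling called 874 of all 7775 genes lower in EcR-RNAi. The count of replication enzymes called lower in EcR-RNAi ranged from 0, without trend and robust settings or without EcR-RNAi -6 h replicate 1 or +6 h replicate 1, to 8 with upper-quartile scaling.

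The interaction was called above 0 for 8 G1-S genes, 18 replication enzymes and 7 nucleotide genes, and below 0 for 3, 0 and 0 (also 0 at an unadjusted p under 0.05 and 0 by edgeR and DESeq2 for the last 2 lists). Of all genes, 11.6% were called above 0 and 15.4% below, so the 3 G1-S genes below 0 lie near the share of all genes. The lists had medians of 0.47, 1.18 and 0.55 against 0.53 for the members. Cks30A (1.85 ± 0.19), Fen1 (1.94 ± 0.37), RfC4 (1.56 ± 0.21), RfC3 (1.53 ± 0.29) and r-l (1.46 ± 0.26) had the largest values of their lists, with Rbf2 (1.22 ± 0.27) and cdc2c (1.02 ± 0.17), and with Ts (1.35 ± 0.32) and dUTPase (1.11 ± 0.17). Those called below 0 were Cks85A (-0.93 ± 0.29), lin19 (-0.58 ± 0.14) and skpA (-0.55 ± 0.16), none of which was called with upper-quartile scaling or without EcR-RNAi +6 h replicate 1. The G1-S count above 0 ranged down to 4, without EcR-RNAi +6 h replicate 2.

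**Figure D5:**
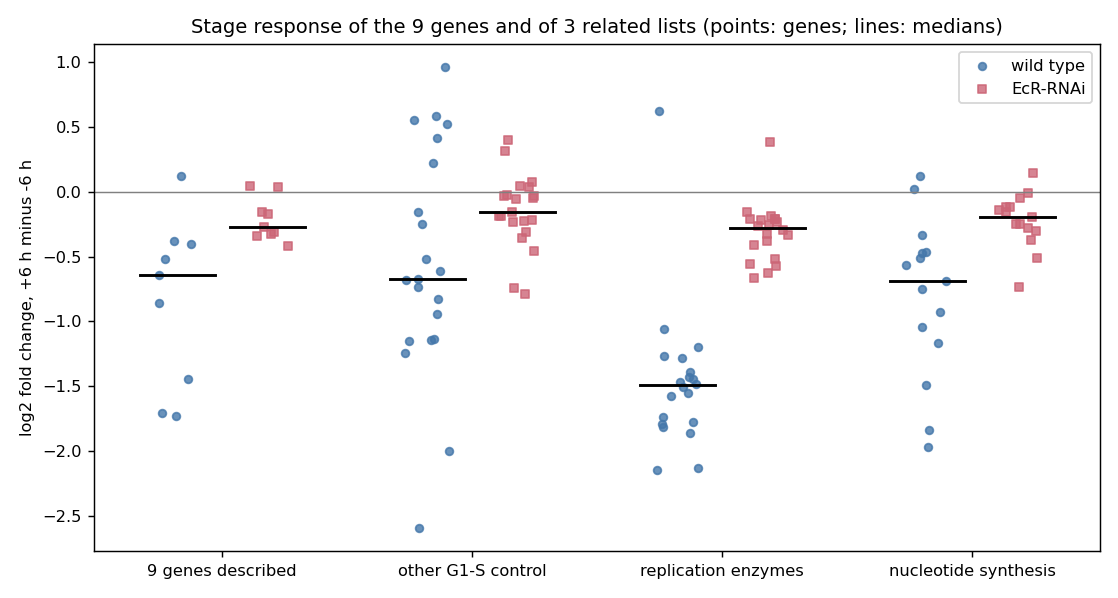
Log2 fold change from -6 h to +6 h on the vertical axis for the 9 genes and for 3 lists of related genes, in wild type (circles) and EcR-RNAi (squares); points are genes and black lines are medians. The median of the replication enzymes is -1.49 in wild type and -0.28 in EcR-RNAi.

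Between genotypes at -6 h, 0 of the 21 G1-S genes and 0 of the 20 replication enzymes were called by limma, edgeR or DESeq2 in either direction, while 3 and 1 of them were lower at an unadjusted limma p under 0.05 and 0 higher. Among the nucleotide genes Dhod, an enzyme of pyrimidine synthesis, was higher (0.45 ± 0.12, adjusted p = 0.0416) and Ts lower (-0.83 ± 0.22, adjusted p = 0.0371) in EcR-RNAi, and both calls ended in several alternatives. Of all genes tested at -6 h, 7.51% were called higher and 3.36% lower, so the single nucleotide gene in each direction lies near those shares. At +6 h, 9 G1-S genes were higher and 5 lower, 18 replication enzymes higher and 1 lower, and 10 nucleotide genes higher and 0 lower (1 lower at an unadjusted p under 0.05, 0 by edgeR or DESeq2). Of all genes, 21.3% were called higher and 21.6% lower, so the 5 lower G1-S genes lie near the share of all genes. Cks30A was higher by 2.01 ± 0.13 on the log2 scale, Fen1 by 1.80 ± 0.26, RfC4 by 1.41 ± 0.15, RfC3 by 1.39 ± 0.20, r-l by 1.27 ± 0.18, Rbf2 by 1.15 ± 0.19, ade2 by 1.143 ± 0.11, cdc2c by 1.10 ± 0.12 and dUTPase by 0.99 ± 0.12. Cks85A (-0.99 ± 0.20), E2f (-0.51 ± 0.15), skpA (-0.51 ± 0.11) and Top1 (-0.41 ± 0.11) were lower in EcR-RNAi. The G1-S genes called lower shrank to 1 with quantile scaling, those called higher to 5 without EcR-RNAi +6 h replicate 2, and the Top1 call ended with upper-quartile and quantile scaling and without wild type +6 h replicate 2 or either EcR-RNAi +6 h library.

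The authors' deposited table of comparisons, with its sign turned to match, gave fewer member calls at the same threshold. By the authors' deposited table, 6 members were lower in wild type at +6 h, with Cdk4 (adjusted p = 0.0612) and E2f2 (adjusted p = 0.142) not among them, and 0 were called in the EcR-RNAi stage comparison. At -6 h the authors' deposited table called RnrL alone, lower in EcR-RNAi (log2 fold change -0.53, adjusted p = 0.0392), and at +6 h it called 5 members higher, with CycD at an adjusted p of 0.0558. The share of all genes called in the authors' deposited table was not worked out here, so these member counts stand without a background.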

How the data were processed

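RNA levels came from the deposited table of normalized counts, a signal in which the authors divided the reads of each gene by 1 factor for each library, as its values show. Whole reads were recovered from 100% of values (tolerance 0.1 read). Per the submitters' processing notes, the build was dm3 and the tools were DESeq2 1.14.1, Subread 1.24.2, STAR 2.5.2b and SAMtools 1.3.1, given without roles. The authors also deposited a table of comparisons: for each gene a log2 fold change with its p-value, raw and adjusted, and a test score that was not used here. The peak lists of 4 CUT&RUN libraries were not used here.

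Groups came from the sample titles, and 0 columns of per-sample values were left unmapped. Genes averaging 10 normalized counts or more (7775 of 15240) were tested in R 4.3.3 with limma 3.58.1 (trend and robust) on log2(normalized count + 1), in 1 model of 4 group means over 8 libraries, with a threshold of 0.05 on the Benjamini-Hochberg adjusted p. Fold changes on this scale understate changes of genes with low counts. Intervals are 95% and not adjusted. The median residual degrees of freedom, after moderation, were 10.9. The fit was also run on simulated counts, whose outcome is not given here. The members and lists were chosen with earlier results of these data known. In each list, at most the 3 called genes with the largest change per comparison and direction are named, and for each member the 3 other genes with the highest r. Alternatives were other pseudocounts, no filter, 3 other scalings, limma without trend and robust settings, fewer libraries, a replicate block, edgeR 4.0.16 and DESeq2 1.42.0 on recovered reads, and each library left out. Replicates differed by more than sampling noise, with a chi-square per degree of freedom of 6.56 to 30.4. Overlapping genes were looked up by name in RefSeq's Release 6 table, whose coordinates were not used with the files' build.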

Additional observations from a re-analysis of the deposited data

Results flagged for a closer look

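The stage response differed between genotypes, by a test of the difference itself, for 5 of the 9 genes. Of all genes tested, 11.6% were called above 0 in that test and 15.4% below. It draws also on the EcR-RNAi libraries at -6 h, those with the high gut and fat body sums, whose part was not tested. At -6 h the log2 difference between EcR-RNAi and wild type was -0.53 for RnrL, -0.41 for mus209 and -0.26 for RnrS. On the log2 scale the EcR-RNAi response exceeded the wild type response by 1.37 for RnrL, 1.31 for mus209 and 1.13 for RnrS, the 3 S-phase enzymes. The difference was 0.69 for CycE and 0.53 for Rbf, and the Rbf call ended in 6 of 18 alternatives. In 4 of the 5 genes the wild type level was lower at +6 h and the EcR-RNAi response did not pass the test. mus209 was called lower in both genotypes, but its EcR-RNAi call ended in 4 of 19 alternatives.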

How the results depend on the processing

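Of 864 member values over all alternatives, 800 kept their direction and their side of the threshold, 33 lost the call, 14 gained one and 17, none of them called, changed sign. Members called lower in the EcR-RNAi stage comparison numbered 4 with upper-quartile or quantile scaling, 0 with DESeq2 and 0 to 1 with a library left out. At -6 h they numbered 1 without trend and robust settings, with only the comparison's libraries, or with DESeq2, and 0 to 2 with a library left out; in the interaction 0 to 1. Upper-quartile and then quantile scaling turned dap in the wild type stage comparison to -0.19 and -0.14, CycE in the EcR-RNAi stage comparison to -0.088 and -0.12, E2f2 there to -0.096 and -0.026, and CycE at -6 h to -0.0070 and -0.022; upper-quartile scaling turned Cdk4 at +6 h to 0.018. With a library left out, CycE ranged from -0.063 to 0.16 and E2f2 from -0.046 to 0.12 in the EcR-RNAi stage comparison. At -6 h CycE ranged from -0.098 to 0.12, CycD from -0.019 to 0.12, Rbf from -0.13 to 0.0825 and E2f2 from -0.21 to 0.0346. The cause was not tested, beyond the shift of the median of all genes by upper-quartile and quantile scaling: -0.31 and -0.21 in the wild type stage comparison, -0.13 and -0.13 in EcR-RNAi, 0.15 and -0.04 at +6 h, and 0.17 and 0.06 in the interaction. With these 2 scalings the share of all calls that were higher moved from 52.1% to 32.3% and 36.0% in wild type, from 75.7% to 46.9% and 45.3% in EcR-RNAi, from 49.6% to 64.4% and 52.7% at +6 h, and from 43.1% to 60.6% and 54.2% in the interaction; at -6 h it moved from 69.1% to 65.5% and 59.6%. Genes called lower in wild type rose from 2075 to 3335 with upper-quartile scaling, and in EcR-RNAi from 302 to 874 and to 945 with quantile scaling, against 182 with DESeq2 and 96 to 161 without 1 of 3 EcR-RNAi libraries. Genes called higher in EcR-RNAi fell from 943 to 521 and 506 without a +6 h library of that genotype. At -6 h, genes called lower moved from 261 to between 100 and 562, and those called higher from 584 to between 354 and 697, with 1 library left out. Without EcR-RNAi +6 h replicate 2, genes called higher fell from 1653 to 1094 at +6 h and from 905 to 584 in the interaction, which reached 1377 with upper-quartile scaling. Replicate numbers are not stated to pair the libraries. The replicate differences of 2 groups correlated at -0.15 to 0.13 across genes, which cannot exclude a pairing. With the replicate block the members called lower were 8 and 1 in the stage comparisons and 2 at -6 h, and those called higher 6 at +6 h and 5 in the interaction. The planned description of EcR peaks at the members, with its 2 alternatives, and that of promoter motifs were not run. With 2 libraries a group, differences as small as those of dap cannot be told apart from the spread.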
